A study of Mus musculus with 8 samples.

Results

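The endoplasmic reticulum (ER) folding and unfolded protein response genes described here were 38 genes listed by name, of which 36 were read by their name on the array and the other 2, Sel1l and Ppp1r15a, through the RefSeq accession of probes that carry the older names Sel1h and Myd116. They were read in whole pancreas of 8 C57BL/6 mice aged 1 week, 4 wild type (WT) and 4 Glis3KO2, a line whose name points to a knockout of the zinc finger transcription factor Glis3 and whose deleted part is not given in the sources used here. Pups of both groups were kept with their own mothers. Total RNA, 500 ng per sample, was labelled with Cy3 and hybridised to 1 Agilent single-colour array per sample. A probe was kept if the scanner software called it well above background on 4 or more of the 8 arrays, as it did for 33239 of 41174 probes, and each gene was taken from its brightest such probe. The 36 genes passed with probes that were well above background on all 8 arrays. Levels are log2 signals relative to the 75th percentile of the same array, so a level of 0 is as bright as that percentile, and they compare 1 probe across arrays, not 1 gene with another.

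Proteins bound for secretion are threaded into the ER through the Sec61 translocon, folded there by chaperones and by enzymes that form disulfide bonds, and, where folding fails, sent back to the cytosol for destruction by ER-associated degradation (ERAD). When unfolded proteins build up, the membrane sensors IRE1 (gene Ern1), PERK (Eif2ak3) and ATF6 (Atf6) start the unfolded protein response: XBP1 and cleaved ATF6 switch on chaperone and ERAD genes, while PERK slows translation and favours ATF4, which switches on stress effectors such as CHOP (Ddit3). Acinar cells, which make digestive enzymes and form most of the pancreas, and insulin-making beta cells both depend on this machinery.

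XBP1 and ATF6 are known to act through the ER stress response element, CCAAT and CCACG with 9 bases between them. The element was searched on both strands in RefSeq promoters of mouse build GRCm38.p6, from 250 bases before to 50 bases after each gene's start, which were found for 33 of the 38 genes. It was present in 10 of the 33 (30.3%): Hspa5, Hsp90b1, Dnajc3, Creld2, Calr, Canx, Pdia6, Ero1lb, Syvn1 and Derl3. Of all 32851 promoters in the table, 39 (0.119%) held it. These 39 promoters belong to 37 genes, so 27.0% of the genes with the element were members of the list. Of the 37 genes, 0 were among the further pathway genes described below, and 27 were in neither list. The 250 bases before the start of Hspa5, which encodes the main ER chaperone BiP, are shown with the element in capitals because this promoter is the textbook case of the response. They lie at chr2:34771840-34772089 on the + strand, hold CCAAT 4 times on either strand, and have a GC content of 62.4%.

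Hspa5: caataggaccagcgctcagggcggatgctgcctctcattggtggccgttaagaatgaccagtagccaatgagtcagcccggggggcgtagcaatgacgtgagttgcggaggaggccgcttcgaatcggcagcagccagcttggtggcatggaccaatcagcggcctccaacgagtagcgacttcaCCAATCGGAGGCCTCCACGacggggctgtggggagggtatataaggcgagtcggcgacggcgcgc

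The next windows of 49 bases centre on the element, in capitals, in 5 further genes, and are shown as examples of the element on either strand in genes whose levels are given below. Each is written along its gene's strand, so the element reads CGTGG first and ATTGG last where it lies on the opposite strand, as in Creld2, Calr and Derl3. They lie at chr10:86705623-86705671 (-) for Hsp90b1, which has a further copy nearer its start, chr15:88819505-88819553 (+) for Creld2, chr8:84847060-84847108 (-) for Calr, chr11:50325785-50325833 (-) for Canx and chr10:75893227-75893275 (+) for Derl3.
Hsp90b1: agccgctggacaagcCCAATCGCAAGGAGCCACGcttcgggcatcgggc
Creld2: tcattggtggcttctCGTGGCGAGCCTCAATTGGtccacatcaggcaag
Calr: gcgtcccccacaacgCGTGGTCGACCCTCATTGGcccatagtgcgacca
Canx: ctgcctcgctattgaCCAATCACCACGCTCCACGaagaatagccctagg
Derl3: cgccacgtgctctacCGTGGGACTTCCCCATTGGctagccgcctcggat

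The related element II, ATTGG and CCACG with 1 base between them, was found in 2 of the 33 promoters (6.06%), those of Dnajb11 and Herpud1, and in 0.0365% of all promoters. Herpud1 carries it at chr8:94386362-94386402 (+), shown in capitals as the site of the ERAD gene for which this element is known.
Herpud1: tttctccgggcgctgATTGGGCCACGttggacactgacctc
The unfolded protein response element core TGACGTGG and the C/EBP-ATF element TGATGNAAT, which ATF4 and its partners bind, were in 0 of the 33 promoters, against 0.676% and 0.965% of all promoters. Matches of different motifs did not overlap in these promoters. A match is a description of the letters and not a site of binding, and the absence of a match says only that the letters are not in this window.

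Before the results, the arrays as a set need a short description. The WT arrays shared 1 slide and scan and the Glis3KO2 arrays another, so that slide, scan and genotype cannot be told apart. Whether the 4 pups of a genotype had different mothers is not given in the sources used here, and p-values therefore refer to the spread among these 8 samples, which may be partly technical. The share of probes well above background ran from 76.1% to 86.5%. Glis3KO2 replicates 3 and 4 stood apart on the first principal component (39.5 and 58.9, the other 6 arrays between -26.2 and 1.2), and Xist, which females make, was high on 1 WT and 3 Glis3KO2 arrays. Glis3 itself was read by a probe well above background on 3 WT and 0 Glis3KO2 arrays (-5.58 ± 0.33 and -6.15 ± 0.21, SD, n = 4, limma adjusted p = 0.496). The tissue label was borne out by its markers: the acinar carboxypeptidase Cpa1 stood at 8.98 ± 0.08 in WT and 8.85 ± 0.18 in Glis3KO2 (SD, n = 4), and all 21 acinar enzymes read were well above background on all 8 arrays.

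No member differed between the genotypes past the threshold of an adjusted p of 0.05 (limma over all 33239 probes): 0 of 36 were higher in Glis3KO2 and 0 were lower, with adjusted p between 0.452 and 0.982. The same test called 0.256% of all probes, 0.0812% higher and 0.174% lower in Glis3KO2. At an unadjusted p under 0.05 there were 2 members, Dnajb9 and Eif2ak3, a share below the 9.0% of all probes at that level. The groups did not overlap for 1 member, Dnajb9, against 5.21% of all probes. In the same arrays the insulin gene Ins2 fell by 3.70 (log2, SE 0.22, limma adjusted p = 5.16e-04) and 7 of 15 beta cell markers fell, so differences between the genotypes were called elsewhere on these arrays. The count of 0 members stayed 0 in each direction under all alternatives, including another background correction, other scalings and leaving out each array in turn.

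The precision of these differences was read from their intervals. The 95% interval of the difference, not adjusted for the number of probes, lay within 1.5-fold either way for 29 of the 36 members and within 2-fold for 34, the exceptions being Chac1 and Trib3. Over all probes these shares were 64.3% and 90.5%. The median log2 difference of Glis3KO2 minus WT was 0.051 over the 36 members, with 23 positive and 13 negative, beside -0.0086 over all probes, 48.1% of which were positive. By role, the median was 0.10 for 11 chaperones and co-chaperones (9 positive, 2 negative), 0.17 for 7 oxidative folding enzymes (6 positive, 1 negative) and 0.051 for 8 ERAD and translocon genes (6 positive, 2 negative). It was -0.049 for 5 sensors and their factors (2 positive, 3 negative) and -0.22 for 5 stress effectors (0 positive, 5 negative). These medians are descriptions of lists chosen by name and were not tested.

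**Figure D1:**
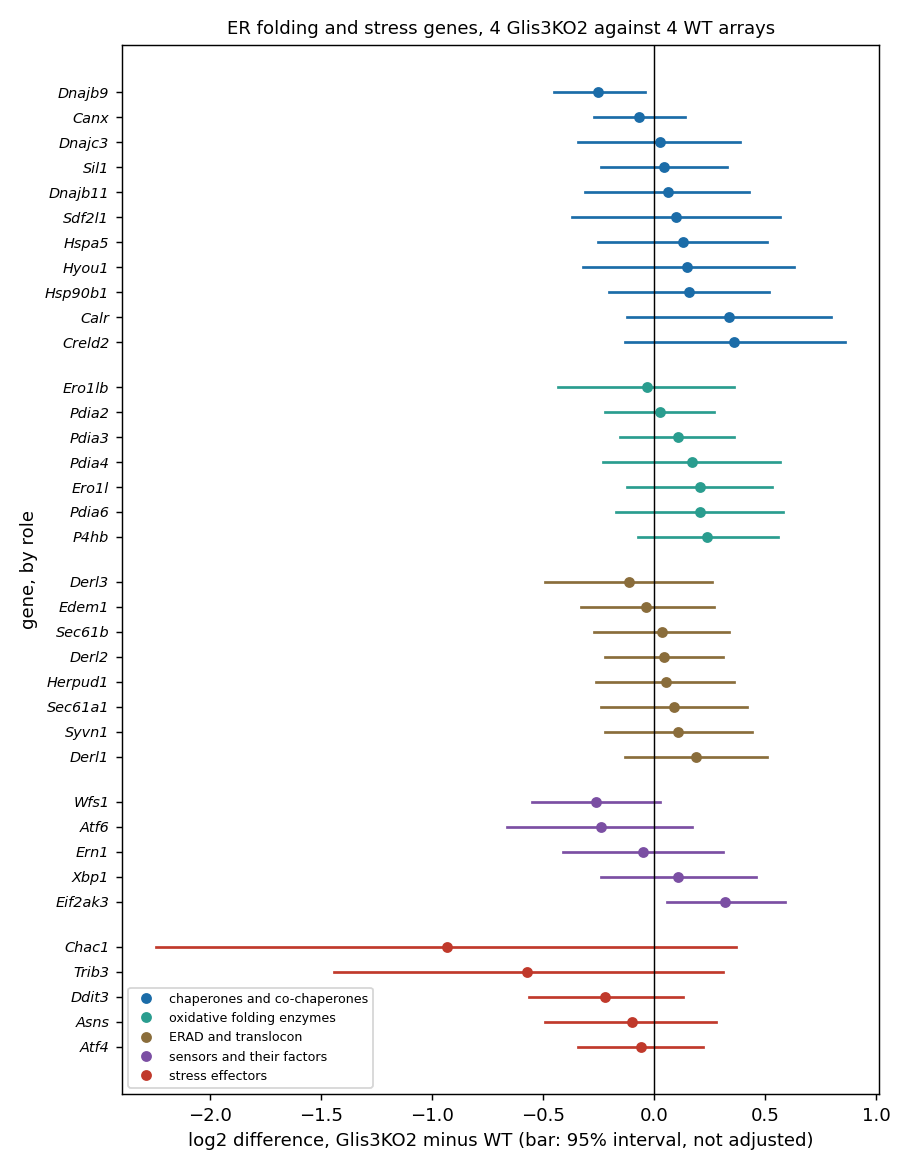
Log2 difference of Glis3KO2 minus WT (points) with its 95% interval (bars, not adjusted) for the 36 genes read by name, ordered within 5 roles, from 4 arrays per genotype. Most points lie near 0, all 5 stress effectors lie to its left, and the intervals of Chac1 and Trib3 are the widest.

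Among the chaperones, Hspa5, the BiP chaperone that binds unfolded chains and holds the sensors inactive, stood at 5.97, 6.33, 6.09 and 6.03 on WT replicates 1 to 4 and at 6.37, 5.83, 6.16 and 6.58 on Glis3KO2 replicates 1 to 4. The Glis3KO2 arrays held both its highest and its lowest level, and the groups overlapped. Its mean was 6.10 ± 0.16 in WT and 6.24 ± 0.32 in Glis3KO2 (SD, n = 4), a log2 difference of 0.13 (SE 0.17, limma adjusted p = 0.875). Without Glis3KO2 replicate 4 the difference was 0.014. Hsp90b1, the ER form of the HSP90 chaperone, had 5.48, 5.82, 5.68 and 5.58 in WT and 6.14, 5.49, 5.61 and 5.96 in Glis3KO2, again with replicate 2 of Glis3KO2 low and replicates 1 and 4 high.

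The lectin chaperones were read by 5 probes in all, none past the threshold. Calr, calreticulin, a soluble chaperone of glycoproteins, stood at 3.68, 4.05, 3.78 and 4.01 in WT and at 4.33, 3.68, 4.18 and 4.70 in Glis3KO2. On 3 of 4 Glis3KO2 arrays it was above every WT array, but replicate 2 matched the lowest WT array, and the log2 difference of 0.34 (SE 0.20, limma adjusted p = 0.686) fell short of the threshold and was 0.18 without Glis3KO2 replicate 4. Canx, calnexin, its membrane-bound relative, had a difference of -0.067 (SE 0.09, adjusted p = 0.883) and a within-genotype SD of 0.05 in WT and 0.08 in Glis3KO2. Its other 2 probes gave 0.16 and 0.12 (adjusted p = 0.768 and 0.854), the sign of Calr, whose other probe gave 0.18. Creld2, a disulfide-linked chaperone partner, was the member with the largest positive difference, 0.36 (SE 0.22, adjusted p = 0.688). Its 4 WT arrays lay between 4.77 and 4.93, while its Glis3KO2 arrays read 5.65, 4.58, 5.06 and 5.56, below all WT arrays on replicate 2 and above all of them on the other 3.

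The co-chaperones that work with BiP gave 1 exception to this pattern. Dnajb9 (ERdj4), a J-domain co-chaperone that restrains IRE1, stood at 0.93, 1.04, 0.91 and 0.85 in WT and at 0.62, 0.68, 0.73 and 0.72 in Glis3KO2. Every Glis3KO2 array was below every WT array, with a log2 difference of -0.25 (SE 0.09, unadjusted p = 0.0227) that missed the threshold (limma adjusted p = 0.461). The other 2 probes of Dnajb9 gave -0.25 and -0.24, with adjusted p of 0.680 and 0.615 and with overlapping groups. Leaving out each array in turn kept the brightest probe's difference between -0.28 and -0.21. Dnajc3 (p58IPK), a co-chaperone that also restrains PERK, read 3.09, 3.44, 3.18 and 3.04 in WT and 3.37, 2.82, 3.17 and 3.5 in Glis3KO2, a difference of 0.026 (SE 0.16, adjusted p = 0.982). Sil1, the nucleotide exchange factor of BiP, read 4.82, 5.05, 4.71 and 4.78 in WT and 5.06, 4.70, 4.75 and 5.02 in Glis3KO2, a difference of 0.045 (SE 0.13, adjusted p = 0.951). The groups overlapped for both genes, and both differences turned negative without Glis3KO2 replicate 1 or 4, that of Dnajc3 also without WT replicate 1 or 4 (-0.070 to 0.16 for Dnajc3 and -0.014 to 0.11 for Sil1 over all single arrays left out). Hyou1, Dnajb11 and Sdf2l1, further partners of BiP, had differences between 0.064 and 0.15, each of which also turned negative without Glis3KO2 replicate 4.

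The oxidative folding enzymes had 6 of 7 positive differences, none past the threshold. P4hb, protein disulfide isomerase itself, stood at 5.48, 5.95, 5.64 and 5.55 in WT and at 5.78, 5.74, 5.96 and 6.13 in Glis3KO2. Its Glis3KO2 levels were the higher on average by 0.24 (SE 0.14, limma adjusted p = 0.660), but WT replicate 2 lay among them. Ero1l, the oxidase that recharges these enzymes, read -1.02, -0.73, -0.82 and -0.61 in WT and -0.51, -0.93, -0.51 and -0.40 in Glis3KO2 (difference 0.21, SE 0.14, adjusted p = 0.727). Only replicate 2 of Glis3KO2 lay within the WT range. Pdia2, the isomerase that is most typical of the pancreas, read 6.85, 7.11, 6.94 and 6.89 in WT and 6.95, 6.80, 7.11 and 7.04 in Glis3KO2, a difference of 0.028 (SE 0.11, adjusted p = 0.967). Pdia3, Pdia4 and Pdia6 had differences of 0.11, 0.17 and 0.21.

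Ero1lb, the oxidase that is abundant in pancreatic cells and known for its part in insulin folding, did not follow Ins2. It stood at 2.84, 3.18, 2.95 and 2.72 in WT and at 3.01, 2.52, 2.77 and 3.27 in Glis3KO2, a difference of -0.032 (SE 0.17, limma adjusted p = 0.979). The groups overlapped, and leaving out single arrays moved the difference between -0.16 and 0.091. Its other probes gave 0.21 and 1.21, the last from a dim probe with -2.29, -2.03, -2.61 and -2.58 in WT and 0.46, -2.05, -2.62 and -0.47 in Glis3KO2 (adjusted p = 0.601). That probe was high on Glis3KO2 replicates 1 and 4 only. Probes of a gene also differed by over 0.5 for Pdia6 (-0.30 to 0.36) and Syvn1 (-0.41 to 0.11), and 0 of all 63 probes of the members were past the threshold.

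In ERAD and the translocon, differences were between -0.11 and 0.19. Derl1, a channel protein of retrotranslocation, lay between 1.94 and 1.98 on all 4 WT arrays and at 2.22, 1.73, 2.25 and 2.39 on the Glis3KO2 arrays. It was thus above all WT arrays on 3 of 4 Glis3KO2 arrays and below all of them on replicate 2 (difference 0.19, SE 0.14, limma adjusted p = 0.75). Syvn1, the HRD1 ubiquitin ligase, read 4.80, 4.88, 4.71 and 4.55 in WT and 5.03, 4.59, 4.65 and 5.09 in Glis3KO2 (0.11, SE 0.14, adjusted p = 0.883). Sel1l, the partner that holds HRD1 in place, had a difference of 0.085 (SE 0.14, adjusted p = 0.911). Edem1, which hands misfolded glycoproteins to ERAD, read 3.75, 4.10, 3.97 and 3.71 in WT and 3.89, 3.60, 3.87 and 4.03 in Glis3KO2, a difference of -0.034 (SE 0.13, adjusted p = 0.967) that turned positive without WT replicate 2 or Glis3KO2 replicate 2. Derl3, a relative of Derl1 in secretory cells, read 4.55, 4.90, 4.52 and 4.54 in WT and 4.38, 4.21, 4.51 and 4.94 in Glis3KO2 (-0.11, SE 0.17, adjusted p = 0.895), with its highest level of all on Glis3KO2 replicate 4. Sec61b, a subunit of the translocon, read 7.07, 7.35, 7.05 and 7.11 in WT and 7.31, 6.94, 7.05 and 7.43 in Glis3KO2 (0.035, SE 0.14, adjusted p = 0.968). Herpud1, Derl2, Sec61a1 and Sec61b turned negative without Glis3KO2 replicate 4, to between -0.048 and -0.024.

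Most of these genes shared their lowest and highest Glis3KO2 arrays, though not the full order between them. Of the 26 chaperones, folding enzymes and ERAD or translocon genes, 24 were lowest on replicate 2, the exceptions being Dnajb9 and Canx, and 19 were highest on replicate 4, with 4 more highest on replicate 1. Replicates 1 and 4 were both above replicates 2 and 3 for 17 of the 26. Canx was an exception by its brightest probe only, since its other 2 probes were lowest on replicate 2. Over the 33195 probes with a value on every array, 20.1% were lowest on Glis3KO2 replicate 2 and 23.7% highest on replicate 4. Among the 10033 probes brighter on average than the 75th percentile, where most members lie, these shares were 27.6% and 42.9%. After quantile normalization, which gives all arrays the same distribution, 23 of the 26 members were lowest on replicate 2 and 15 highest on replicate 4, while the bright probes stood at 21.5% and 27.6%. The pattern was noticed in these values, and replicate numbers have no order of their own.

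The other genes of the same processes, which the member list does not hold, shared these extremes. Of 83 further genes of folding, translocon and ERAD, 57 (68.7%) were lowest on Glis3KO2 replicate 2 and 62 (74.7%) highest on replicate 4. WT arrays had a high array too: 21 of the 26 members and 58 of the 83 other genes were highest on WT replicate 2, against 31.2% of all probes and 43.6% of bright ones. Relative to the WT mean, the median chaperone stood at -0.088, 0.18, -0.027 and -0.060 on WT replicates 1 to 4 and at 0.23, -0.27, 0.023 and 0.33 on Glis3KO2 replicates 1 to 4. The median of all probes stayed between -0.046 and 0.021 on every array. The chaperone medians of Glis3KO2 arrays thus lay on both sides of the WT mean, and their median difference of 0.10 was -0.0067 in the lowest case with 1 array left out.

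**Figure D2:**
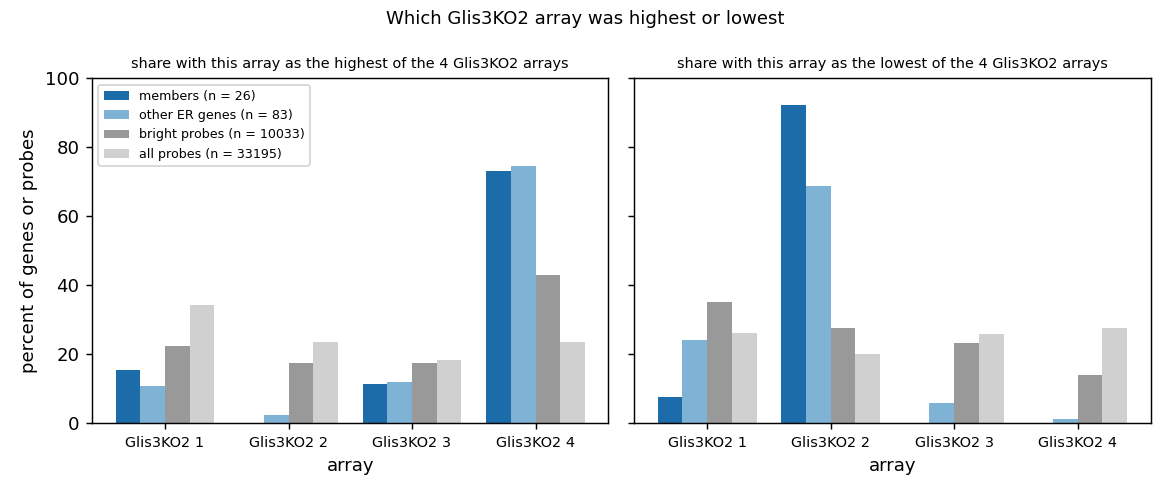
Percent of genes or probes for which each Glis3KO2 array was the highest (left) or the lowest (right) of the 4, for 26 member genes of folding and ERAD, 83 other genes of the same processes, 10033 bright probes and 33195 probes in all. Members and the other ER genes peak at replicate 4 on the left and at replicate 2 on the right, above the bars of bright and of all probes.

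Marker levels of other cells were read beside this pattern. The linear levels of 21 acinar enzymes were summed, in units of the 75th percentile. In WT the sum was between 9220 and 10800, highest on replicate 2. On Glis3KO2 replicates 1 to 4 it was 10300, 8810, 7780 and 8690, lowest on replicate 3. The sum of 9 acinar factor and granule genes was 1070 to 1190 in WT, also highest on replicate 2. On Glis3KO2 replicates 1 to 4 it was 1060, 919, 926 and 1080, lowest on replicate 2 and highest on replicate 4 by small margins. Nr5a2, Cuzd1, Rbpjl and Ptf1a had the same extremes. Sycn and Zg16, the brightest of the list, and Gata4 were instead highest on replicate 1 and lowest on replicate 3. Gp2 was the reverse of these, and Bhlha15 was highest on replicate 1 and lowest on replicate 2. On Glis3KO2 replicates 1 to 4 the sum of 10 genes of dividing cells was 51.9, 43.4, 63.5 and 65.0 (44.8 to 50.8 in WT). It was lowest on replicate 2 and highest on replicate 4, but single genes differed. Ccnb1, Plk1, Bub1, Top2a, Mki67, Aurkb and Mcm2 were highest on replicate 3, and Cdk1, Mcm5 and Pcna on replicate 4. Aurkb, Cdk1, Mcm5 and Mcm2 were lowest on replicate 1, and the others on replicate 2. The sum of 6 red blood cell lineage genes was 136, 75, 87.9 and 126 (98.8 to 137 in WT), and the sum of 15 beta cell markers was 411, 224, 204 and 203 (745 to 921 in WT). Fat cell markers ran the opposite way. Their sum of 6 was 56.9, 66.1, 43.4 and 31.8 on the Glis3KO2 arrays, highest on replicate 2 and lowest on replicate 4. In WT it was 57.5, 36.4, 38.8 and 59.3, lowest on replicate 2. Most of this sum was Fabp4, but each of the 6 was lowest on Glis3KO2 replicate 4. Endothelial markers shared these extremes (sum of 6: 18.5, 19.6, 17.7 and 16.2, and 20.9, 20.7, 23.3 and 24.9 in WT). The mesenchyme sum was lowest on Glis3KO2 replicate 4 (652) and WT replicate 2 (583), but highest on Glis3KO2 replicate 1 (749). The duct sum was highest on Glis3KO2 replicate 2 (175) and lowest on replicate 1 (140). The fat cell hormone Adipoq stood at 1.07 on Glis3KO2 replicate 2 and -4.10 on replicate 4. Replicate 2 was also the Glis3KO2 array with low Xist and with the fewest probes well above background, 31353. The part of these measures in the levels of the ER genes was not tested.

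**Figure D3:**
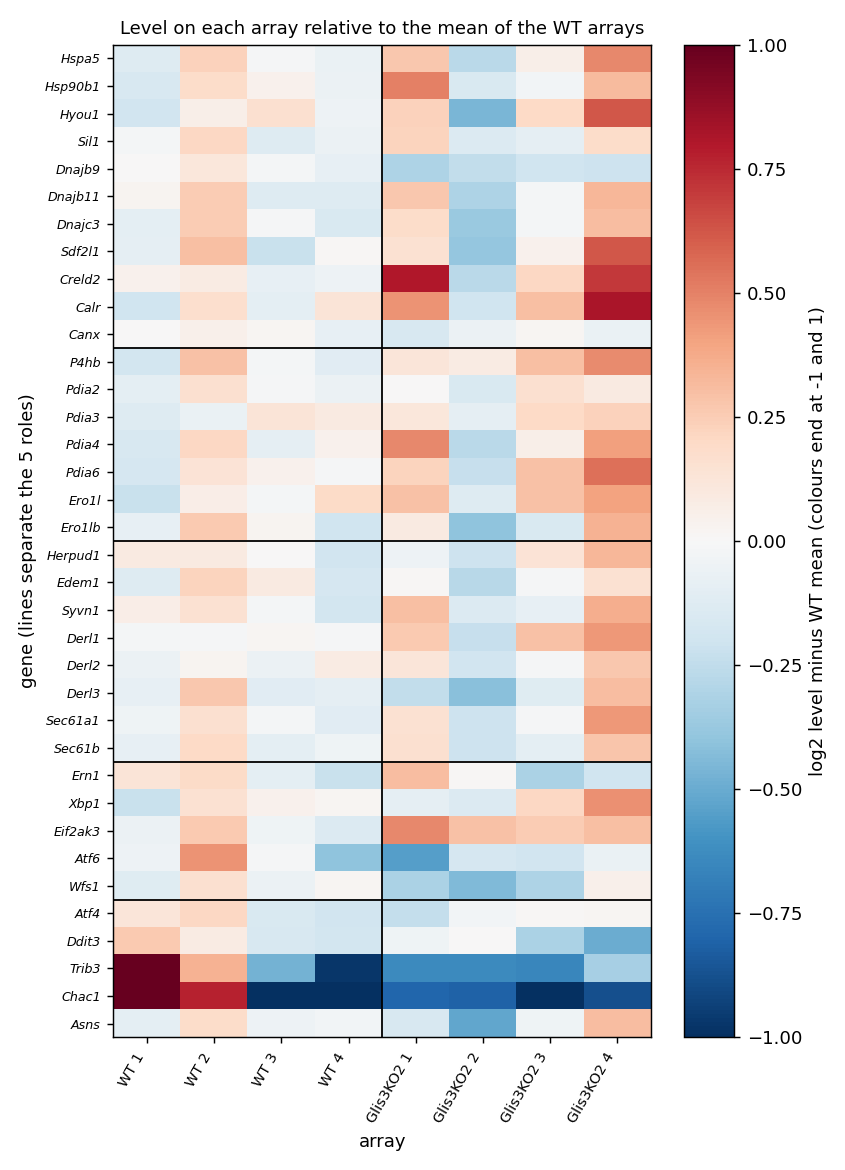
Log2 level of the 36 genes on each of the 8 arrays minus the mean of the 4 WT arrays (colour, ending at -1 and 1), with lines between the 5 roles and between the genotypes. Most chaperone and ERAD rows are blue on Glis3KO2 2 and red on Glis3KO2 4 (9 of 11 chaperones and 8 of 8 ERAD genes above the WT mean there, with Dnajb9 and Canx below it), and Trib3 and Chac1 are red on WT 1 and WT 2.

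The genes with an element in their promoter were read apart from the rest. The 12 holders of the ER stress response element or element II had a median log2 difference of 0.09 (9 positive, 3 negative), and the 19 other genes read by name that have a promoter 0.03 (10 positive, 9 negative). Sel1l and Ppp1r15a, read by accession, were not counted here. All 12 holders were chaperones, folding enzymes or ERAD genes. The other genes also included stress effectors such as Chac1 (-0.93), so element and role cannot be told apart in these medians. On Glis3KO2 replicates 1 to 4 the median holder stood at 0.24, -0.25, 0.0016 and 0.34 relative to WT, and the median gene without either element at 0.0097, -0.19, -0.0060 and 0.22. Canx, whose element is printed above, was by its brightest probe not lowest on replicate 2 (4.44, against 4.34 on replicate 1), but was lowest there by its other 2 probes (0.25 and 2.01). Among genes of neither list whose promoter holds either element, 20 were read, 0 were past the threshold, 4 had an unadjusted p under 0.05 (limma, 9.0% of all probes), the groups did not overlap for 2 (5.21% of all probes), and 13 were positive (48.1% of all probes). The 2 were Calr4 and Tdrd9, and Tdrd9 had the lowest p of the 20. Its probe was dim, well above background on 4 WT but only 1 Glis3KO2 array, so it passed the filter through the WT arrays.

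The sensors and their factors did not share a direction. Eif2ak3, the PERK kinase, stood at 1.40, 1.72, 1.42 and 1.32 in WT and at 1.94, 1.75, 1.71 and 1.76 in Glis3KO2. Its levels overlapped by 1 array, since WT replicate 2 was just above Glis3KO2 replicate 3, and the difference of 0.32 (SE 0.12, unadjusted p = 0.0207) was not past the threshold (limma adjusted p = 0.452). It was between 0.27 and 0.41 with single arrays left out. Atf6, the sensor that becomes a transcription factor when cleaved, read 1.46, 1.96, 1.5 and 1.11 in WT and 0.96, 1.34, 1.32 and 1.44 in Glis3KO2 (-0.24, SE 0.18, adjusted p = 0.751). Ern1, the IRE1 kinase and nuclease, read -1.0, -0.94, -1.23 and -1.35 in WT and -0.82, -1.12, -1.45 and -1.33 in Glis3KO2, a difference of -0.049 (SE 0.16, adjusted p = 0.960) that leaving out single arrays moved between -0.17 and 0.041. Both overlapped between the genotypes.

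Xbp1, the factor that IRE1 activates by splicing its mRNA, stood at 2.64, 3.01, 2.90 and 2.88 in WT and at 2.77, 2.72, 3.07 and 3.32 in Glis3KO2. The groups overlapped, and the difference of 0.11 (SE 0.15, limma adjusted p = 0.885) was -0.0037 without Glis3KO2 replicate 4. The probe reads the gene and was not used to tell spliced from unspliced Xbp1. Wfs1, the wolframin membrane protein that dampens ER stress and is abundant in beta cells, stood at 1.21, 1.49, 1.27 and 1.35 in WT and at 1.01, 0.89, 1.02 and 1.38 in Glis3KO2. It was below all WT arrays on 3 of 4 Glis3KO2 arrays, with replicate 4 inside the WT range, and its difference of -0.26 (SE 0.13, adjusted p = 0.614) did not pass the threshold. On the same arrays 7 of 15 beta cell markers fell, while others did not pass the threshold, among them Pdx1 (-0.062, adjusted p = 0.920), Iapp (0.45, adjusted p = 0.688) and Pcsk1 (0.66, adjusted p = 0.276, higher on every Glis3KO2 array than on any WT array). In whole tissue fewer cells of a type and less RNA per cell cannot be told apart.

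All 5 stress effectors read by name had negative differences, none past the threshold. Chac1, a glutathione-degrading enzyme switched on by ATF4, stood at 4.40, 3.61, 1.71 and 1.65 in WT and at 2.05, 2.03, 1.59 and 1.96 in Glis3KO2. WT replicates 1 and 2 stood far above every other array, and WT replicates 3 and 4 lay within the Glis3KO2 range. The difference was -0.93 (SE 0.58, limma adjusted p = 0.690), -0.41 without WT replicate 1 and -1.33 without WT replicate 4. Trib3, a pseudokinase induced by ATF4 and CHOP, was also highest on WT replicates 1 and 2, with 1.62, 0.86, 0.04 and -0.46 in WT and -0.13, -0.13, -0.14 and 0.18 in Glis3KO2 (-0.57, SE 0.39, adjusted p = 0.721, and -0.20 without WT replicate 1). WT replicate 4 lay below every Glis3KO2 array. Its other probe was likewise highest on WT replicates 1 and 2, at -0.25 and -0.89 against -1.68 to -1.24 on the other 6 arrays. The pooled spread within genotypes put Chac1 at the 99.0th percentile of all probes and Trib3 at the 96.0th.

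Ddit3, which encodes the pro-apoptotic factor CHOP, stood at -0.41, -0.59, -0.83 and -0.85 in WT and at -0.71, -0.67, -0.99 and -1.17 in Glis3KO2. WT replicates 1 and 2 were again the highest of all 8 arrays, and the difference was -0.22 (SE 0.15, limma adjusted p = 0.730). Atf4, the factor downstream of PERK, read 2.26, 2.35, 1.99 and 1.95 in WT and 1.90, 2.11, 2.15 and 2.16 in Glis3KO2, also with WT replicates 1 and 2 on top, and its difference of -0.059 (SE 0.12, adjusted p = 0.933) turned positive without WT replicate 2 (0.012) or Glis3KO2 replicate 1. Asns, asparagine synthetase, an amino acid response gene that is abundant in pancreas, read 6.67, 6.95, 6.72 and 6.74 in WT and 6.61, 6.25, 6.73 and 7.08 in Glis3KO2. It followed the chaperones in being lowest on Glis3KO2 replicate 2 and highest on replicate 4, and its difference of -0.10 (SE 0.17, adjusted p = 0.910) was 0.034 without Glis3KO2 replicate 2. Ppp1r15a (GADD34), which reverses the translation block, differed by 0.062 (SE 0.12, adjusted p = 0.924), and with it the median of the 6 effectors was -0.16.

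**Figure D4:**
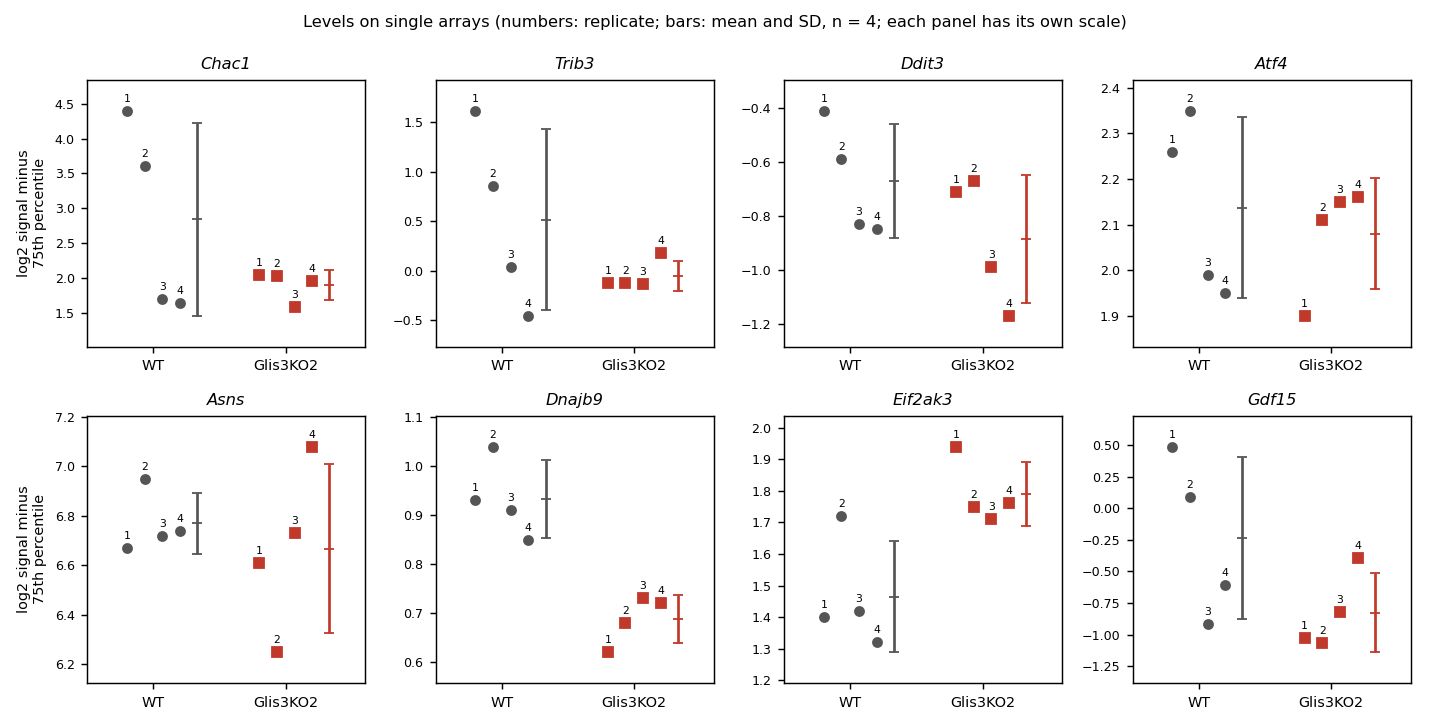
Log2 level relative to the 75th percentile of each array for 8 genes (points with the replicate number; bars give the mean and SD, n = 4), WT in grey and Glis3KO2 in red, with a separate scale per panel. Chac1, Trib3, Ddit3, Atf4 and Gdf15 are highest on WT 1 and WT 2, while Dnajb9 is lower on every Glis3KO2 array than on any WT array.

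The marker sums of WT replicates 1 and 2 were read beside this. Plasma and B cell markers summed to 8.04 on WT replicate 1 and 3.85 on WT replicate 2, against 3.32 to 5.24 on the other 6 arrays. Other leukocyte markers summed to 73.9 and 35.6, the highest and the lowest of the 8 arrays. Their part in the levels of Chac1 and Trib3 was not tested.

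Further genes of the pathway, in 4 lists by function, gave the same count. Of 127 genes read, 0 were higher and 0 lower past the threshold (limma). At an unadjusted p under 0.05 there were 2, a share below the 9.0% of all probes. The groups did not overlap for 2, a share below the 5.21% of all probes. Both genes at that p were in the list of the PERK and ATF4 branch, sensors and cell death: Txnip, the thioredoxin inhibitor that PERK and IRE1 are known to induce (0.37, SE 0.13, adjusted p = 0.442), and Atf3, a stress-induced factor (-0.31, SE 0.13, adjusted p = 0.524). Txnip read 3.71, 3.67, 3.47 and 3.32 in WT and 3.77, 4.09, 3.77 and 4.01 in Glis3KO2, so all its Glis3KO2 arrays were above all its WT arrays. Of the 44 genes of that list 18 were positive and 26 negative (median -0.025). Gdf15, a secreted stress hormone of the same list, named after its values were seen, read 0.49, 0.09, -0.92 and -0.61 in WT and -1.03, -1.07, -0.82 and -0.39 in Glis3KO2, with WT replicates 1 and 2 on top as for Chac1 (-0.59, SE 0.30, adjusted p = 0.623).

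Signs in the lists that handle proteins were counted but not tested, and over all probes 48.1% were positive. The genes are not independent, since 62 of the 83 were highest on Glis3KO2 replicate 4. Of 32 folding and glycoprotein genes 28 were positive (median 0.11), as were 24 of 29 genes of the translocon, signal peptidase and oligosaccharyltransferase (0.12) and 17 of 22 ERAD genes (0.086). The genes of lowest p in each were Pdia5 (0.28, adjusted p = 0.600) and Txndc5 (0.20, adjusted p = 0.630), both disulfide isomerases, Stt3a (0.32, adjusted p = 0.573), the catalytic subunit of the oligosaccharyltransferase, and Ssr2 (0.31, adjusted p = 0.631), a translocon-associated protein. In ERAD they were Ube2j1, a ubiquitin-conjugating enzyme (0.31, adjusted p = 0.625), and Ufd1, a partner of the VCP ATPase (0.15, adjusted p = 0.732), all by limma over all probes. Ube2j1 shared the extremes seen in the members: it read 2.85, 2.80, 2.78 and 2.69 in WT and 3.11, 2.66, 3.14 and 3.46 in Glis3KO2, lowest on replicate 2 and highest on replicate 4 of that group.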

How the data were processed

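Per the labels, 4 WT and 4 Glis3KO2 pancreas samples were each hybridised to a single-colour array. The deposited files hold linear spot intensity values that the authors obtained with Agilent Feature Extraction 9.5.3.1, per the file headers (9.5 in the submitters' processing notes), and spot positions are in build mm7. From these, the log2 processed intensity was taken relative to the 75th percentile of the array (43379 non-control spots, without 56 to 130 outlier spots). That scale hides a change common to most genes. On it, 10 spike-in probes differed by a median of -0.28 (log2, Glis3KO2 minus WT), and 9 of the 10 were lower in Glis3KO2. The signs of the members' differences are therefore relative to the 75th percentile.

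Genotypes were compared with limma 3.58.1 in R 4.3.3 (2-sided, Benjamini-Hochberg over all 33239 probes kept). Adjusted p-values come from that fit, apart from that of Glis3 (fit with no filter) and those given for an alternative. On simulated data for this comparison (33195 probes, 200 changed), 71% of 2-fold and 93% of 4-fold changes were recovered and 4% of calls were false. The simulated noise was independent for each probe and array. It held none of the patterns that probes share on the real arrays, so these rates may not hold there. RefSeq accessions were matched to the reference gene table for 22940 of 25422 probes that had one. Tables and figures were made with Python 3.11.15.

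The members, the gene lists and the naming rule were chosen with earlier results of these data known. The rule gives values on every array for the members of lowest and highest p in each role and for Hspa5, Xbp1, Ddit3, Atf4, Ero1lb and Wfs1, and names the genes of lowest p in each further list. Values of Hsp90b1, Creld2 and Derl3, and of the beta cell markers Pdx1, Iapp and Pcsk1 and the fat cell marker Adipoq, were added after values were seen. Alternatives were normexp background (offset 50), quantile normalization, median scaling, no filter on dim probes, a filter that asks for all 8 arrays, a block for replicate number, the series table as deposited, trend and robust eBayes, array weights, a gene's mean over its probes, genes matched by accession, and leaving out each array. After values were seen, a fit without Glis3KO2 replicates 3 and 4 and a fit with Xist as covariate were added. Protein features, planned as a description, were not analysed here.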

Additional observations from a re-analysis of the deposited data

Results flagged for a closer look

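In 76 groups of 4 arrays (38 genes, 2 genotypes), 4 had an array whose gap to the nearest other exceeded Dixon's 95% critical share of the group's range. Chance alone gives about 1 in 20 such groups. Derl1 stood at 1.98 on WT replicate 3 (the other 3 at 1.94 to 1.95), a gap that is small in size. Derl3 stood at 4.90 on WT replicate 2 (4.52 to 4.55). Trib3 stood at 0.18 and Ppp1r15a at -0.71 on Glis3KO2 replicate 4 (the others at -0.14 to -0.13 and at -1.09 to -1.06).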

How the results depend on the processing

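Under the alternatives, 641 of 700 values of the 36 members kept their direction and their side of the threshold, 59 (20 members, none above 0.21 in size with all 8 arrays) turned direction, 0 passed the threshold, and the lowest adjusted p was 0.274 (limma, Creld2 without Glis3KO2 replicate 2, 0.58). Counts over all probes, 27 higher and 58 lower, were 45 and 98 with trend and robust eBayes, 12 and 15 with Xist as a covariate, 5 and 6 without Glis3KO2 replicates 3 and 4, and 32 lower with no filter. With 1 array left out they were 15 to 25 and 20 to 73. The cause of these moves was not tested. The pairing of replicate numbers was not established (same-numbered arrays correlated by 0.13, 0.09, 0.24 and -0.04, and 3 of 4 WT arrays correlated best with their own number). With the replicate block, 7 were higher and 8 lower over all probes, and 0 of the members.

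Without Glis3KO2 replicates 3 and 4 the differences that turned were Hspa5 -0.0046, Hyou1 -0.11, Dnajb11 -0.027, Dnajc3 -0.095, Sdf2l1 -0.12, Pdia2 -0.069, Pdia6 -0.0042, Herpud1 -0.13, Derl2 -0.036, Sec61a1 -0.033, Sec61b -0.023, Ern1 0.16, Xbp1 -0.11, Sel1l -0.054 and Ppp1r15a -0.040. With Xist as a covariate they were Hyou1 -0.027, Dnajb11 -0.017, Dnajc3 -0.057, Sdf2l1 -0.069, Pdia2 -0.012, Derl2 -0.060, Sec61b -0.035, Ern1 0.040, Atf4 0.010 and Ppp1r15a -0.011. With the mean of all probes they were Hyou1 -0.064, Canx 0.069, Ero1lb 0.46, Edem1 0.044 and Syvn1 -0.15. Quantile normalization gave Dnajc3 -0.014, and array weights gave Sec61b -0.00068.

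With 1 array left out, differences that turned in some case ranged from -0.0067 to 0.36 (Hyou1), -0.014 to 0.11 (Sil1), -0.025 to 0.19 (Dnajb11), -0.070 to 0.16 (Dnajc3), -0.070 to 0.27 (Sdf2l1), -0.016 to 0.086 (Pdia2), -0.16 to 0.091 (Ero1lb), -0.040 to 0.14 (Herpud1), -0.095 to 0.047 (Edem1), -0.026 to 0.13 (Derl2), -0.024 to 0.19 (Sec61a1), -0.048 to 0.12 (Sec61b), -0.17 to 0.041 (Ern1), -0.0037 to 0.20 (Xbp1), -0.12 to 0.012 (Atf4), -0.24 to 0.034 (Asns) and -0.030 to 0.099 (Ppp1r15a). Under all alternatives the median of the stress effectors stayed between -0.34 and -0.14 and that of the oxidative folding enzymes between 0.0045 and 0.30. The medians of all members (-0.035 to 0.15), chaperones (-0.027 to 0.26), ERAD and translocon genes (-0.035 to 0.14) and sensors (-0.14 to 0.041) turned in some. With 4 arrays per genotype, the unadjusted 95% intervals lay within 1.5-fold either way for 29 of 36 members. These intervals are not the limit of detection, since p-values were adjusted over all 33239 probes. The intervals of Dnajb9 (-0.45 to -0.04) and Eif2ak3 (0.06 to 0.59) left out 0, yet neither gene was past the threshold.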
